A study of Mus musculus with 8 samples.

Results

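The glucocorticoid receptor is a nuclear receptor that, once bound by hormone, moves to the nucleus, binds short palindromic DNA elements and switches genes on. A small set of such genes is induced in many tissues and is widely read as a sign of receptor activity. In white fat these genes touch receptor feedback, inflammation, adipocyte differentiation and protein turnover. The 10 genes described here are the receptor-complex chaperone Fkbp5, the anti-inflammatory regulators Tsc22d3 and Dusp1, the transcription factors Zbtb16, Klf9 and Hif3a, the signalling regulators Ddit4, Sgk1 and Errfi1, and the amino acid enzyme Tat. They were listed by name, and each had 1 probe set with a single gene symbol. All 10 were among the 14787 genes tested, of 22180 genes with such a probe set.

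The arrays measured total RNA of the left epididymal fat pad, a white adipose depot, from 8 male C57BL/6 mice with 1 array per mouse. In the GC+ group, 4 mice received the synthetic glucocorticoid prednisolone daily in sweet potato puree for 4 weeks from 6 weeks of age, at a dose the labels give as 40 mg per kg per square metre. In the GC- group, 4 mice received the puree alone as vehicle. All 8 were weaned at 3 weeks onto an n-6 rich high-fat diet with 45% of energy from fat, were housed singly and were 10 weeks old at collection, so there was no low-fat group. The labels give neither the hour of collection nor the time since the last dose. Mice are named by the replicate number in their labels. Values are log2 expression levels from the authors' robust multiarray averaging (RMA), on which 1 unit is a doubling, and a level of one gene cannot be set against that of another. Array medians lay between 6.09 and 6.13.

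Adipocyte markers kept to a narrow range over the arrays. The level averaged over 9 of 10 listed markers ran from 12.57 to 12.78 in prednisolone mice and from 12.35 to 12.75 in vehicle mice. Markers of other tissue varied. Markers of epididymis and testis were averaged over 12 of 14 genes. The average ran from 6.38 to 10.20 in prednisolone mice and from 6.17 to 10.31 in vehicle mice. It was highest in prednisolone mouse 2 and in vehicle mice 1 and 4. In vehicle mouse 4 the markers were split. Gpx5, Adam7, Lcn5 and Ros1 read 13.605, 13.205, 13.643 and 8.956 there. Adam28, Lcn8 and Lcn9 read 5.949, 6.644 and 5.805, against 12.706, 13.505 and 13.613 in prednisolone mouse 2. The sperm genes of that list went another way among prednisolone mice. Prm1, Tnp1 and Tnp2, which package sperm DNA, read 9.57, 8.78 and 8.95 in prednisolone mouse 3, the highest of its group for each, against 7.40, 5.16 and 5.35 in prednisolone mouse 2. In bulk tissue, fewer cells of a type and less RNA per cell cannot be told apart.

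The receptor's DNA element is a pair of inverted half-sites, AGAACA and its complement TGTTCT, separated by 3 bases. RefSeq promoter windows of assembly GRCm38.p6, which span 250 bases before to 50 after a transcript start, were available for 9 of the 10 genes, 17 windows in all, and for 27025 genes in 32851 windows. The full element, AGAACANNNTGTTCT, which reads the same on both strands, occurred in 3 of these 32851 windows (0.00913%), and 1 of the 3 belonged to Sgk1. At least 1 half-site on either strand, including those inside a full element, was present in 19.0% of all windows and in 4 of the 17 windows of the 9 genes, 3 of Sgk1 and 1 of Tsc22d3. A second motif, the cyclic AMP response element TGACGTCA, which also reads the same on both strands, was in 1.79% of all windows and in 2 of the 17, the window of Dusp1 and 1 of the 2 windows of Errfi1. The Sgk1 and Tsc22d3 windows are shown because they hold receptor half-sites, the Dusp1 window because it holds the other element, and the Ddit4 and Tat windows because these genes differed most between the groups. Each runs 5′ to 3′ on the gene's strand, with matched bases in capitals.
Sgk1, chr10:21993640-21993939, plus strand: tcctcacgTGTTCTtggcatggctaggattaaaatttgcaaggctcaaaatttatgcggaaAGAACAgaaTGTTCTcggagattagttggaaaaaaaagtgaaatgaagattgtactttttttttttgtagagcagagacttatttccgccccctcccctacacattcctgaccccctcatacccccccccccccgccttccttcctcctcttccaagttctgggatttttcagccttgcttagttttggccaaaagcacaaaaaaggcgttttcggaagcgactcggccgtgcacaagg
Tsc22d3, chrX:140600473-140600772, minus strand: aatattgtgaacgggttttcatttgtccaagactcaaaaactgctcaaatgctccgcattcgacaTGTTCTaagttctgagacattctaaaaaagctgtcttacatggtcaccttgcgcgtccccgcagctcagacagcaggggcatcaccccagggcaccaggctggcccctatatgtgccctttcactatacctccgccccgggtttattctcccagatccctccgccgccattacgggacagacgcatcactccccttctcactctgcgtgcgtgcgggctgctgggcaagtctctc
Dusp1, chr17:26508423-26508722, minus strand: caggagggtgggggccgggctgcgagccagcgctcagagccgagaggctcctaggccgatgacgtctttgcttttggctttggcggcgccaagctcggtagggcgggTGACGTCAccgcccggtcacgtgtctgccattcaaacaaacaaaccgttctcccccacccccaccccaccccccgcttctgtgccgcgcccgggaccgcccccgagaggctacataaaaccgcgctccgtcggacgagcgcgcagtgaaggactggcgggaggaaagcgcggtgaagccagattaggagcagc
Ddit4, chr10:59951721-59952020, minus strand: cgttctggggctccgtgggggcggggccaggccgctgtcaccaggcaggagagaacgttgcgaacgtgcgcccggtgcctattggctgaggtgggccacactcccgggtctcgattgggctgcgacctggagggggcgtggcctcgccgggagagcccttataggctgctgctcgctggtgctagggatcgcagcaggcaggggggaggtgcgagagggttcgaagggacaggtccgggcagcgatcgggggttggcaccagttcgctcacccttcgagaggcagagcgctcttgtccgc
Tat, chr8:109990186-109990485, plus strand: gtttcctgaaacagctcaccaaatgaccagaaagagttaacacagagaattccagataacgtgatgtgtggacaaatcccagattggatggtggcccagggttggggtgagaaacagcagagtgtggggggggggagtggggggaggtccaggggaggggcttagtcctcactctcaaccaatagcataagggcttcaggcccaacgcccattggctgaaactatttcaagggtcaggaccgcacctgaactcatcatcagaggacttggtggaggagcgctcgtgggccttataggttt
In the Sgk1 window the full element begins 189 bases before the transcript start, and another half-site begins 242 bases before it. The windows of Ddit4 and Tat held none of these 3 motifs. Such a match is a description of the letters, and known receptor elements of several of these genes lie in introns or farther upstream.

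The comparison asked whether daily prednisolone for 4 weeks left these target genes higher in fat. None of the 10 was called higher or lower. With limma, 0 of 10 passed an adjusted p of 0.05, as did 0 of 14787 genes tested (0%), and the lowest adjusted p over all genes was 0.713. The mean was lower in prednisolone mice for 9 of the 10 genes, against 45.4% of all tested genes, and higher for 1, Dusp1, against 54.6%. The median difference of the 10 was -0.26 on the log2 scale, against 0.018 over all tested genes. Ddit4 and Tat had the largest differences and the lowest unadjusted p. At an unadjusted p under 0.05 these 2 of 10 were lower, against 2.33% of all tested genes, and 0 of 10 were higher, against 3.37%. The groups did not overlap in 1 of the 10, Ddit4, which was lower, against 1.39% of all tested genes lower without overlap.

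**Figure D1:**
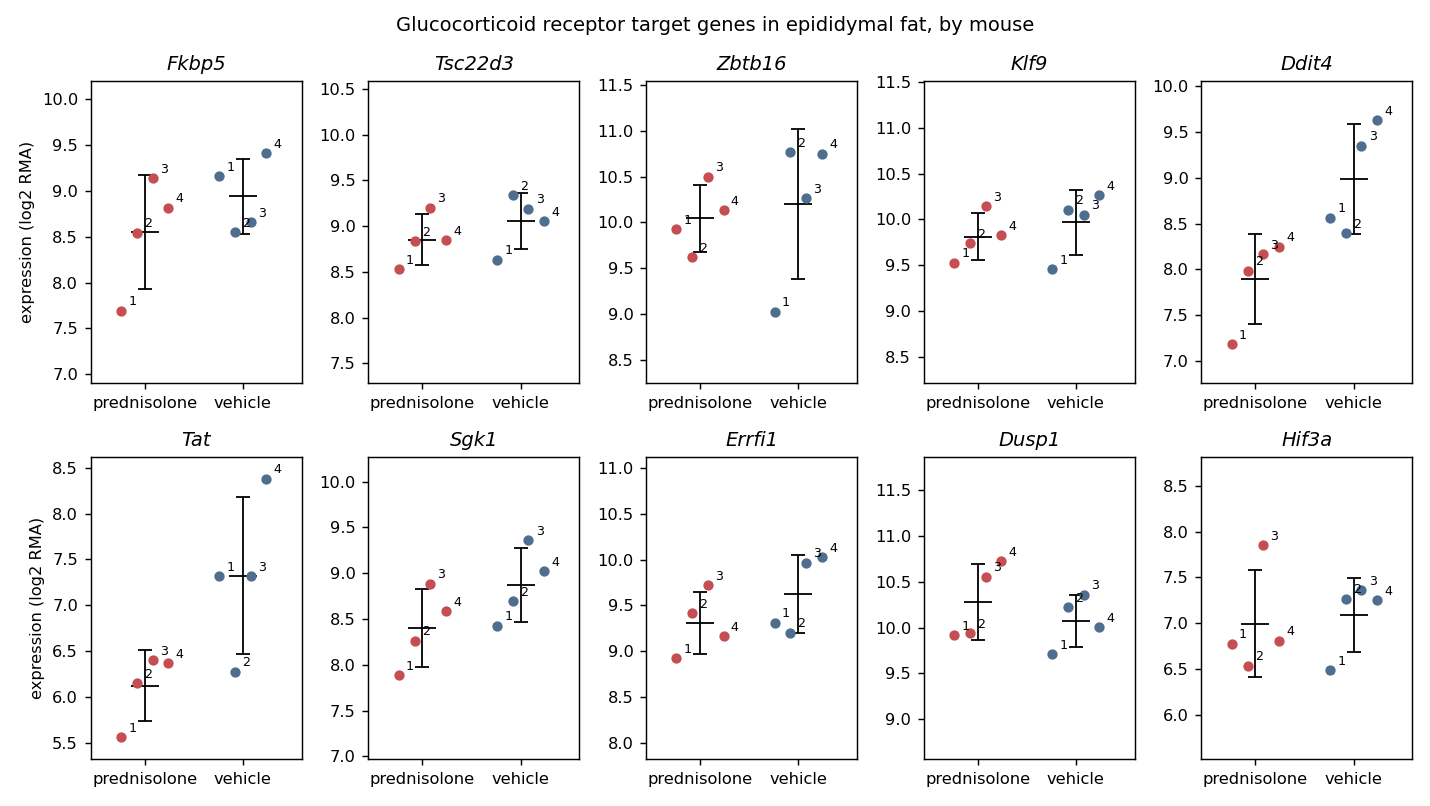
Expression of the 10 genes in each mouse (vertical axes, log2 RMA, each spanning the same range), prednisolone mice in red and vehicle mice in blue with the replicate number beside each point, and black bars for the mean and SD (n = 4 each). The groups are apart in Ddit4 alone, and prednisolone mouse 1 is the lowest of its group in 8 of the 10 panels.

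**Figure D2:**
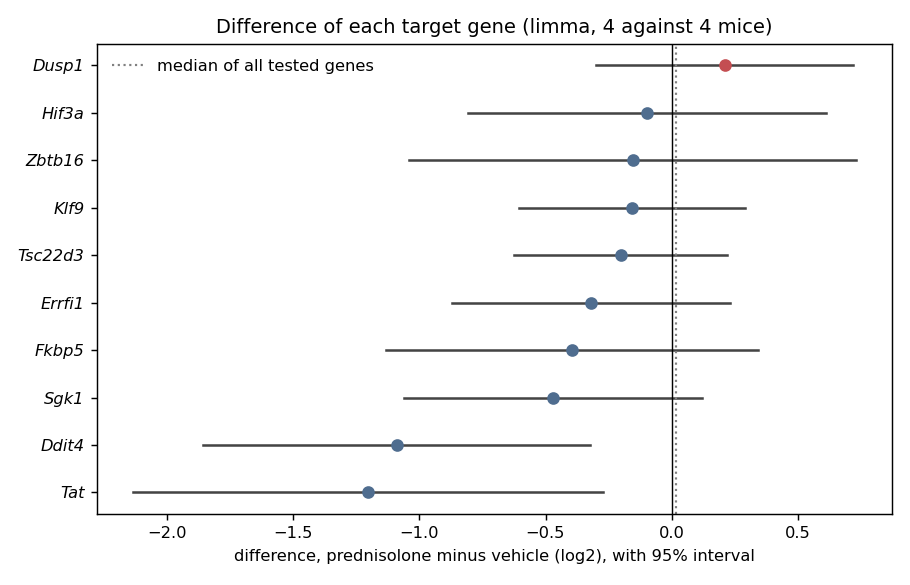
Difference between group means for each gene (horizontal axis, log2, prednisolone minus vehicle) with its 95% interval from limma (red point, higher mean with prednisolone; blue, lower), and the median of all tested genes as a dotted line. The intervals of Ddit4 and Tat lie below 0, and those of the other 8 genes include 0.

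Fkbp5 encodes a co-chaperone that binds the receptor complex and lowers its affinity for hormone, a short feedback loop. It read 7.69, 8.55, 9.14 and 8.82 in prednisolone mice 1 to 4, against 9.16, 8.55, 8.66 and 9.41 in vehicle mice 1 to 4. The groups overlapped, with prednisolone mouse 1 lowest of all and vehicle mouse 4 highest. The means were 8.55 ± 0.62 in prednisolone mice and 8.95 ± 0.41 in vehicle mice (SD, n = 4 each), a difference of -0.40 ± 0.32 (SE; adjusted p = 0.791). The 95% interval ran from -1.13 to 0.34, so that its upper end is a rise of 1.27-fold. Without prednisolone mouse 1 the difference was -0.11. Markers best known from liver, and those of epididymis and testis, were high on average in vehicle mice 1 and 4. In these mice Fkbp5 was also highest among vehicle mice. Without these mice its difference was -0.05 ± 0.37. It was 0.25 ± 0.33 with the liver marker score as a covariate and -0.39 ± 0.34 with the epididymis and testis score, which includes sperm genes. The liver score was highest in vehicle mice 1 and 4, so it and the treatment can be told apart only in part. These fits were chosen after seeing the data.

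Tsc22d3 encodes GILZ, a leucine zipper protein that mediates part of the anti-inflammatory action of glucocorticoids. It read 8.53, 8.84, 9.20 and 8.85 in prednisolone mice 1 to 4, against 8.63, 9.34, 9.19 and 9.06 in vehicle mice 1 to 4. Mouse 1 was the lowest in both groups, and the other values interleaved. The difference was -0.20 ± 0.18 (adjusted p = 0.811), with an interval from -0.62 to 0.22, an upper end of 1.16-fold. With prednisolone mouse 1 left out it was -0.094, and with vehicle mouse 1 left out -0.34. Tsc22d1, Tsc22d2 and Tsc22d4 of the same family differed by -0.21 ± 0.10, 0.40 ± 0.20 and -0.01 ± 0.07.

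Dusp1 encodes a phosphatase that switches off p38 and JNK kinases. Glucocorticoids induce it, and so do growth factors and stress as an immediate early gene. It read 9.92, 9.94, 10.56 and 10.72 in prednisolone mice 1 to 4, against 9.71, 10.23, 10.36 and 10.00 in vehicle mice 1 to 4. Prednisolone mice 3 and 4 lay above every vehicle mouse, and the other values of the groups overlapped. It was the 1 gene of the 10 with a higher mean with prednisolone, by 0.21 ± 0.22 (adjusted p = 0.8289; interval -0.30 to 0.72). The difference was -0.01 ± 0.26 without vehicle mice 1 and 4. Of its relatives, Dusp10 averaged 9.02 in prednisolone and 8.48 in vehicle mice (0.54 ± 0.19, adjusted p = 0.768), and Dusp4 differed by -0.01 ± 0.19.

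Among the transcription factors, Zbtb16 (PLZF), a zinc finger repressor that takes part in adipogenesis, was the most variable in the vehicle group. It read 9.93, 9.62, 10.50 and 10.14 in prednisolone mice 1 to 4, against 9.02, 10.77, 10.26 and 10.75 in vehicle mice 1 to 4. Vehicle mouse 1 lay below all other mice, and vehicle mice 2 and 4 above all prednisolone mice. The difference was -0.16 ± 0.39 (adjusted p = 0.926), became -0.55 without vehicle mouse 1, and turned to 0.03 without either vehicle mouse 2 or vehicle mouse 4.

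Klf9, a Krüppel-like factor that glucocorticoid and thyroid hormone both induce, read 9.53, 9.74, 10.15 and 9.83 in prednisolone mice 1 to 4. It read 9.46, 10.11, 10.05 and 10.27 in vehicle mice 1 to 4. Its values kept within 1 unit over all mice, and mouse 1 was the lowest in each group. The difference was -0.16 ± 0.20 (adjusted p = 0.853; interval -0.61 to 0.29), an upper end of 1.22-fold, and ranged between -0.33, with vehicle mouse 1 left out, and -0.06, with vehicle mouse 4 left out. Klf15, another glucocorticoid-induced family member, differed by -0.43 ± 0.21 and Klf13 by -0.05 ± 0.14.

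Hif3a, an inhibitory relative of the hypoxia-inducible factors, read 6.77, 6.54, 7.85 and 6.81 in prednisolone mice 1 to 4, against 6.48, 7.27, 7.36 and 7.25 in vehicle mice 1 to 4. Prednisolone mouse 3 was the highest and vehicle mouse 1 the lowest of all mice, each away from the rest of its group. The difference was -0.10 ± 0.31 (adjusted p = 0.944), -0.38 without prednisolone mouse 3 and 0.05 without prednisolone mouse 2. The activating family members Hif1a and Epas1 differed by -0.04 ± 0.10 and 0.12 ± 0.18.

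Ddit4, also called REDD1, restrains the growth-promoting kinase complex mTORC1 and is induced by glucocorticoids in muscle and other tissues. It read 7.18, 7.98, 8.16 and 8.25 in prednisolone mice 1 to 4, against 8.56, 8.39, 9.35 and 9.63 in vehicle mice 1 to 4. Every prednisolone mouse lay below every vehicle mouse, and vehicle mice 3 and 4 were well above the rest. The means were 7.89 ± 0.49 in prednisolone mice and 8.98 ± 0.60 in vehicle mice (SD, n = 4 each). The difference of -1.09 ± 0.33, or 2.13 times more in vehicle mice, had an unadjusted p of 0.0109 and an adjusted p of 0.768. In 133 of the 14787 genes the difference was lower still. It stayed between -1.29 and -0.85 without any 1 mouse, and was -1.44 ± 0.35 with array weights. It was -0.98 ± 0.37 without vehicle mice 1 and 4, which were high on average in liver markers and in epididymis and testis markers. With the liver marker score as a covariate it was -0.76 ± 0.46 (unadjusted p = 0.137). That score and the treatment can be told apart only in part. With the epididymis and testis score it was -1.09 ± 0.35. The fits that used these markers were chosen after seeing the data. Its relative Ddit4l had a wide error (0.26 ± 0.70), and read 9.26 in prednisolone mouse 2 against 6.03 to 6.46 in the other prednisolone mice.

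Sgk1 is a kinase induced by glucocorticoids and by the related mineralocorticoid receptor, and acts on ion channels and on FOXO factors. It read 7.89, 8.26, 8.88 and 8.58 in prednisolone mice 1 to 4, against 8.42, 8.70, 9.36 and 9.02 in vehicle mice 1 to 4. Prednisolone mouse 1 was the lowest of all and vehicle mouse 3 the highest, and the other values interleaved. The difference was -0.47 ± 0.26 (adjusted p = 0.768), with an interval from -1.06 to 0.12, an upper end of 1.09-fold. Leaving out single mice moved it between -0.63 (prednisolone mouse 3) and -0.30 (prednisolone mouse 1). Sgk3 differed by -0.35 ± 0.16, and Sgk2 was among the dimmest genes, which were not tested.

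Errfi1, which encodes the epidermal growth factor receptor inhibitor MIG6, read 8.92, 9.41, 9.72 and 9.16 in prednisolone mice 1 to 4. It read 9.31, 9.20, 9.96 and 10.02 in vehicle mice 1 to 4. Vehicle mice 3 and 4 were above all prednisolone mice, and the other values overlapped. The difference was -0.32 ± 0.24 (adjusted p = 0.779; interval -0.87 to 0.23), an upper end of 1.17-fold. It was -0.19 without vehicle mouse 4 and -0.56 with array weights.

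Tat encodes tyrosine aminotransferase, which starts tyrosine breakdown and is a textbook glucocorticoid-induced gene of liver. It read 5.56, 6.15, 6.40 and 6.37 in prednisolone mice 1 to 4, against 7.32, 6.27, 7.32 and 8.38 in vehicle mice 1 to 4. Vehicle mice 1, 3 and 4 were above all prednisolone mice, and vehicle mouse 2 lay among them. The means were 6.12 ± 0.39 in prednisolone mice and 7.32 ± 0.86 in vehicle mice (SD, n = 4 each). The prednisolone mean was a low signal, close to the array medians of 6.09 to 6.13. Prednisolone mouse 1 lay below 5.82, the mean level under which genes were left out as dim. The difference of -1.20 ± 0.41, or 2.30 times more in vehicle mice, had an unadjusted p of 0.0174 and an adjusted p of 0.768, and 113 genes had a lower difference. It ran from -1.55 without vehicle mouse 2 to -0.85 without vehicle mouse 4.

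Liver markers differed in the same direction as Tat. Averaged over 7 of 7 listed genes, their level ran from 7.179 to 7.593 in prednisolone mice and from 7.595 to 8.960 in vehicle mice, and 5 of the 7 had a lower mean with prednisolone. Alb, serum albumin, read 7.23, 7.70, 7.89 and 7.59 in prednisolone mice 1 to 4, against 10.75, 8.72, 7.76 and 11.36 in vehicle mice 1 to 4. The apolipoproteins Apoa1 and Apoa2 and the transport protein Ttr were likewise highest in vehicle mice 1 and 4. Tdo2, a tryptophan-degrading liver enzyme among the dimmest genes and not tested, read 4.60 to 5.06 in prednisolone mice and 5.21 to 6.66 in vehicle mice. The exceptions were Serpina1a and Cyp2e1, with higher means in prednisolone mice, by 0.12 and 0.24, and Cyp2e1 read at least 12.22 on every array. Vehicle mouse 3 read 7.32 for Tat with Alb inside the prednisolone range, while its Tdo2, at 6.005, lay above the prednisolone range. Without vehicle mice 1 and 4 the Tat difference was -0.68 ± 0.35, and with the liver marker level as a covariate it was -0.35 ± 0.39. The lowest vehicle level, 7.595, was just above the highest prednisolone level, 7.593, and vehicle mice 1 and 4, at 8.67 and 8.96, were well above the rest. The liver marker level and the treatment can therefore be told apart only in part. Both fits were chosen after seeing the data.

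**Figure D3:**
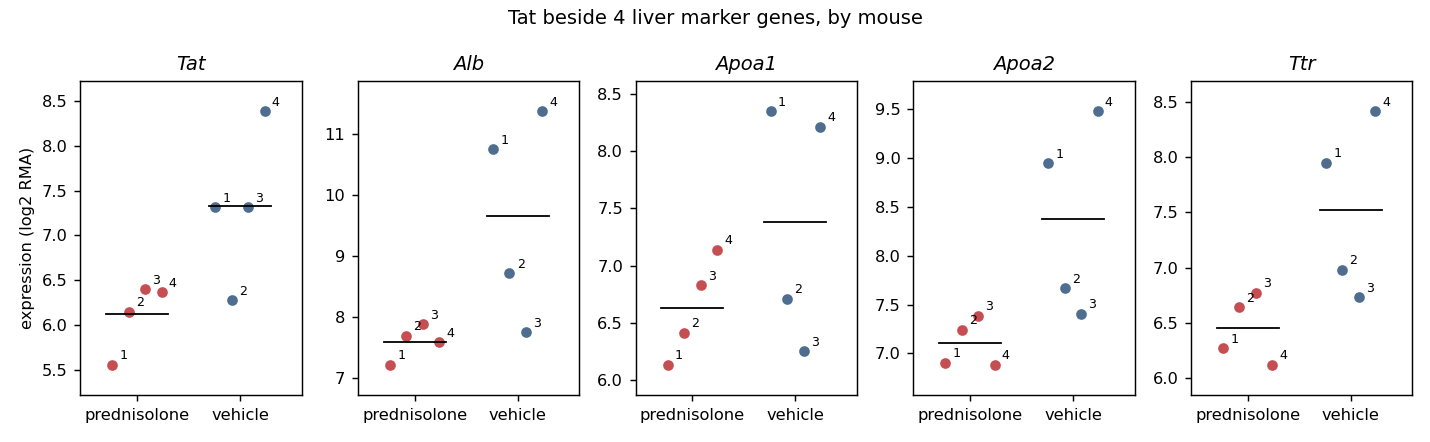
Tat and the liver markers Alb, Apoa1, Apoa2 and Ttr in each mouse (vertical axes, log2 RMA, each on its own range), prednisolone mice in red and vehicle mice in blue, with the replicate number beside each point and a line at the group mean (n = 4 each). Vehicle mice 1 and 4 are highest for all 4 liver markers, while Tat is equally high in vehicle mice 1 and 3.

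Several mice kept their place from gene to gene. Prednisolone mouse 1 was the lowest of its group for 8 of the 10 genes, and prednisolone mouse 3 the highest for 8. Among vehicle mice, mouse 1 was the lowest for 6 genes and mouse 2 for 4, while mouse 4 was the highest for 5. Prednisolone mouse 3 was also the highest of its group for the sperm genes Prm1, Tnp1 and Tnp2. So was vehicle mouse 1 in its group (9.48, 8.09 and 8.80), the mouse lowest for 6 of the 10 genes. Of the same list, Odf1 read 12.57 in vehicle mouse 1, below vehicle mice 2 and 3. The part of these sperm genes in the levels was not tested. Prednisolone mice 1 and 2 lay below the 8-array mean for all 10 genes, whereas prednisolone mouse 3 did so for 2, Ddit4 and Tat, and vehicle mice 3 and 4 for 1 each. Leaving out prednisolone mouse 1 brought the median of the 10 differences to -0.11, and leaving out prednisolone mouse 3 to -0.42. It was -0.47 with array weights, of which prednisolone mouse 1 (2.06) and vehicle mouse 4 (2.01) had the largest.

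**Figure D4:**
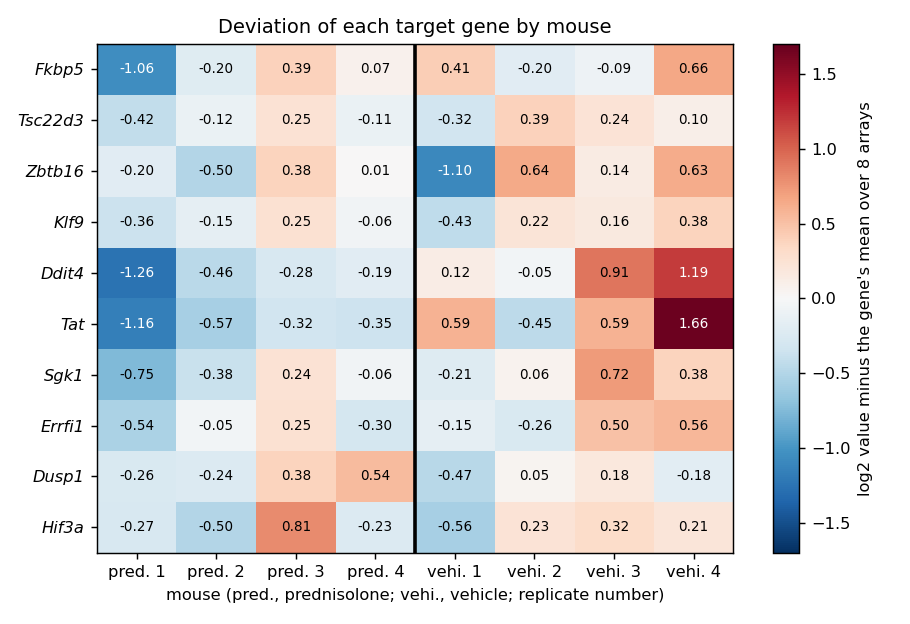
Deviation of each gene (rows) in each mouse (columns, prednisolone left of the black line, vehicle right of it) from that gene's mean over the 8 arrays, in log2 units, printed in each cell and coloured from blue (below) to red (above). The column of prednisolone mouse 1 is below 0 throughout, down to -1.26 in Ddit4, and that of vehicle mouse 4 is above 0 except for Dusp1.

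Of the 45 pairs among the 10 genes, 44 were positively correlated over the 8 mice, with a median Pearson r of 0.57. An r above 0 was found in 97.8% of these pairs, against 50.9% of all pairs of tested genes, and an r above 0.5 in 64.4%, against 16% of all pairs. After Benjamini-Hochberg adjustment over the 45 pairs, 2 passed by two-sided exact permutation of Pearson's r and 0 by Spearman's rho. Mice were permuted over both groups, so a group difference that the genes of a pair share enters these p-values. Ddit4 and Tat had r = 0.93 (exact permutation p = 0.000397, adjusted 0.0179) and rho = 0.88 (p = 0.00724, exact permutation, adjusted 0.0964). Without the 2 mice farthest from the median of Ddit4 their r was 0.82, and over deviations from the group means it was 0.85. Zbtb16 and Klf9 had r = 0.90 (exact permutation p = 0.00203, adjusted 0.0458) and rho = 0.90 (p = 0.00456, exact permutation, adjusted 0.0964), with r = 0.90 both without the 2 farthest mice and over deviations from the group means. Zbtb16 and Klf9 were lowest in vehicle mouse 1, in which Ddit4 and Tat were not the lowest of the group. The genes of a pair share the arrays and the RNA of each mouse, and the whole-array differences between mice enter every such r.

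The genes whose pattern over the 8 arrays was most like that of Fkbp5, of 13426 tested genes with an established name, were Cpne7 (r = 0.93), Lrrc56 (0.92), Dnajb4 (0.91) and Lrif1 (0.91). For Ddit4 they were Fosl2, Arrdc3 and Smco4 (each 0.95) and Rbm15b (0.94), and for Tat they were Scaf11 (0.97), Med13 and Huwe1 (each 0.96) and Zfp445 (0.95). They are the highest of many values over 8 arrays and carry no test.

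Other genes known to be induced by glucocorticoids were spread around 0. Of 40 listed, 37 had a probe set and 34 were tested. Means were higher with prednisolone for 14 and lower for 20 (54.6% and 45.4% of all tested genes), and 0 passed the adjusted threshold. The median difference was -0.04, in a range from -1.02 to 0.53. At an unadjusted p under 0.05, 3 were higher and 1 lower, against 3.37% and 2.33% of all tested genes. Anxa1, annexin A1, an anti-inflammatory phospholipid-binding protein, averaged 12.56 in prednisolone and 12.16 in vehicle mice (0.40 ± 0.15). Cdkn1c, a cell cycle inhibitor, was higher in every prednisolone mouse than in every vehicle mouse (0.28 ± 0.10), the 1 gene of the list without overlap, against 1.81% of all tested genes higher without overlap. Angptl4, an inhibitor of lipoprotein lipase, differed by 0.53 ± 0.23, and Nfkbia, the inhibitor of NF-κB, by -0.47 ± 0.20. Each of these 4 had an adjusted p of 0.768.

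The clock gene Per1, also a direct receptor target, had a lower mean with prednisolone. It read 8.66, 9.55, 9.78 and 9.52 in prednisolone mice 1 to 4, against 9.62, 9.79, 10.13 and 10.10 in vehicle mice 1 to 4 (-0.53 ± 0.24, adjusted p = 0.768). Cebpd, a factor of early adipocyte differentiation, differed by -0.39 ± 0.22. The metallothioneins Mt1 and Mt2, which bind metals and respond to glucocorticoids in many tissues, differed by -0.0047 ± 0.17 and -0.01 ± 0.22. Pdk4, which restrains glucose oxidation, and Lcn2, lipocalin 2, had wide errors (0.05 ± 0.48 and 0.05 ± 0.80). Lcn2 ran from 9.28 to 12.44 in prednisolone mice and from 8.79 to 11.62 in vehicle mice, highest in prednisolone mouse 2 and vehicle mouse 1, both with high epididymis markers, whose part in it was not tested.

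No gene acting upstream of the targets was called. Of 15 listed receptor, chaperone and cofactor genes, 12 had a probe set and 11 were tested. The median difference was 0.05, and 0 passed the adjusted threshold. Means were higher with prednisolone for 9 and lower for 2, against 54.6% and 45.4% of all tested genes. At an unadjusted p under 0.05, 1 was higher and 0 lower, against 3.37% and 2.33% of all tested genes. The mean of the receptor gene Nr3c1 was 9.77 with prednisolone and 9.74 with vehicle (0.03 ± 0.12). The mineralocorticoid receptor Nr3c2 differed by 0.02 ± 0.12. The enzyme gene Hsd11b1, whose product makes active glucocorticoid from its inert form, differed by 0.23 ± 0.16. That of the opposite reaction, Hsd11b2, differed by 0.25 ± 0.10. Fkbp4, the co-chaperone that counteracts Fkbp5, read 8.77, 9.16, 8.81 and 8.68 in prednisolone mice 1 to 4, against 9.96, 8.96, 8.83 and 9.56 in vehicle mice 1 to 4 (-0.47 ± 0.25), highest like Fkbp5 in vehicle mice 1 and 4. The other paralogue of Fkbp5 examined, Fkbp1a, differed by 0.10 ± 0.10, and Zbtb32, a relative of Zbtb16, by 0.17 ± 0.09. Over all 15 listed paralogues of the 10 genes, 14 were tested, and 0 passed the adjusted threshold. The mean was higher for 6 and lower for 8 (54.6% and 45.4% of all tested genes). At an unadjusted p under 0.05, 1 paralogue was higher and 0 lower (3.37% and 2.33% of all tested genes). The adjusted p of each upstream gene named here was between 0.768 and 0.964.

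Genes that glucocorticoids are known to repress did not have lower means as a list. Of 20 listed inflammatory genes, 7 were among the dimmest genes and 13 were tested. Of these 13, 10 had a higher and 3 a lower mean in prednisolone mice (median 0.13), against 54.6% and 45.4% of all tested genes. At an unadjusted p under 0.05, 5 were higher and 0 lower, against 3.37% and 2.33% of all tested genes, but 0 remained after adjustment. The 4 with the lowest p were the chemokines Cxcl1 (0.40 ± 0.12), Ccl7 (1.07 ± 0.37), Ccl2 (1.05 ± 0.38) and Ccl3 (0.74 ± 0.28), all with higher means in prednisolone mice. Macrophage markers, averaged over 10 genes, ran from 9.97 to 10.62 in prednisolone mice and from 9.46 to 10.90 in vehicle mice, with higher means for all 10 in prednisolone mice, and their part in these differences was not tested.

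Immediate early genes, the class to which Dusp1 also belongs, had higher means in prednisolone mice for 21 of 22 tested, against 54.6% of all tested genes, with a median of 0.24. At an unadjusted p under 0.05, 6 were higher and 1 lower, against 3.37% and 2.33% of all tested genes, but 0 remained after adjustment. The groups did not overlap in 5 of them, each higher, against 1.81% of all tested genes higher without overlap. Fos, a subunit of AP-1, averaged 7.63 in prednisolone and 6.65 in vehicle mice (0.97 ± 0.22), Egr1 averaged 8.37 in prednisolone and 7.64 in vehicle mice (0.72 ± 0.17), and Atf3 averaged 8.24 in prednisolone and 7.80 in vehicle mice (0.44 ± 0.09). Jun differed by 0.27 ± 0.16. The exception, Fosl2, averaged 9.09 in prednisolone and 9.46 in vehicle mice (-0.38 ± 0.13), and was the gene most like Ddit4 over the arrays. Dusp1 itself, at 0.21, lay close to the median of this list.

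**Figure D5:**
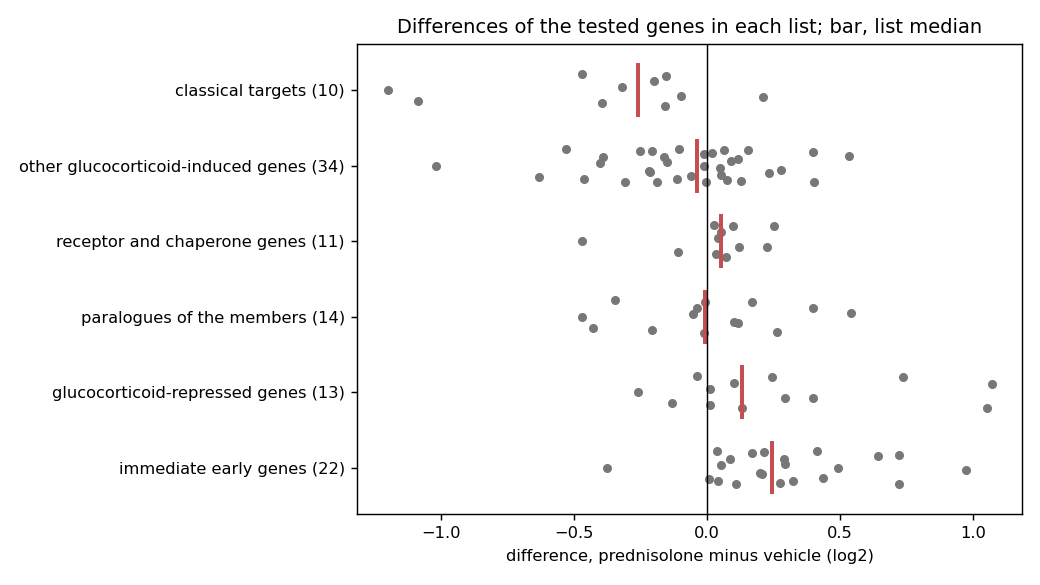
Difference of each tested gene (points; horizontal axis, log2, prednisolone minus vehicle) in the 6 lists, with the number of tested genes in brackets and a red bar at each list's median. The medians run from -0.26 for the 10 target genes to 0.24 for immediate early genes.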

How the data were processed

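The deposited table holds log2 expression values of 41345 probe sets for 8 Affymetrix GeneChip Mouse Gene 2.0 ST arrays, made by the authors by RMA in Affymetrix Expression Console, per the labels. RMA corrects the background, equalises the distributions of the arrays and summarises the probes of a probe set, so that a shift common to all genes is removed and differences at low signal are compressed. The submitters' processing notes also list Partek 6.6 without saying what it did. The genome build is not given in the sources used here. The number of arrays limits precision. The labels call the replicates biological.

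Probe sets were named from GEO's platform annotation: 23521 had 1 symbol, 1814 several and 16010 none, and 23328 were matched by Entrez identifier to RefSeq (GRCm38.p6), which changed 0 symbols. Where a gene had several probe sets, the brightest by its mean over the 8 arrays stood for it, and the dimmest 33.3% of genes, below a mean of 5.82, were left out. The groups were compared, prednisolone minus vehicle, using limma 3.58.1 (R 4.3.3), with lmFit and eBayes at defaults, 4 against 4, no covariate, and Benjamini-Hochberg adjustment over all 14787 genes, with a threshold of 0.05. The script was tested on simulated data. Errors after ± are standard errors of the model unless marked SD. The 10 genes, the gene lists and the rule for naming genes were chosen with earlier results of these data known. The rule named all 10 genes and their paralogues, fixed genes of the other lists, the lowest p of each list (4 induced, 4 repressed, 2 immediate early) and the 4 genes most like Fkbp5, Ddit4 and Tat. Hsp90ab1 had no probe set with 1 symbol. Alternatives changed the filter, normalization, choice of probe set, variance model, array weights and replicate block, and left out each mouse. Fits with a marker score, or without the mice high in it, were added after seeing the data. The scores were of liver markers, or of 11 tested epididymis and testis markers, sperm genes among them. Figures were drawn with matplotlib 3.10.9.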

Additional observations from a re-analysis of the deposited data

Results flagged for a closer look

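In 94 groups of 4 mice examined among the named genes, 6 held 1 mouse far from the other 3, with a gap to the nearest of them above Dixon's 95% critical value as a share of the group's range; chance flags about 1 group in 20. Hif3a read 6.48 in vehicle mouse 1, against 7.25 to 7.36 in the other vehicle mice (a gap of 0.880 of the range). Nr3c1 read 9.43 in the same mouse, against 9.81 to 9.89 (0.839). Egr1 read 7.87 in prednisolone mouse 3, against 8.50 to 8.59 in the other prednisolone mice (0.874). Ddit4l read 9.26 in prednisolone mouse 2, against 6.03 to 6.46 (0.868). Sgk3 read 8.25 in vehicle mouse 2, against 8.79 to 8.87 (0.870). Tsc22d4 read 7.32 in prednisolone mouse 4, against 7.36 to 7.37 (0.836), a small gap in absolute terms.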

How the results depend on the processing

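Over 20 alternatives, 0 genes, 0 of the 10 targets and 0 of the other induced genes passed the adjusted threshold in any. The lowest adjusted p of a target was 0.355, for Ddit4 and Tat with array weights. Targets with an unadjusted p under 0.05 were all lower with prednisolone. They numbered 2 in the reported fit, beside 344 lower genes among the 14787 tested. Their number was 4 with array weights (beside 919 lower genes) and 4 without vehicle mouse 1 (280). It was 3 without prednisolone mouse 3 (213) and 1 without vehicle mice 1 and 4 (236). It was 0 without the 3 mice highest in the epididymis and testis score, prednisolone mouse 2 and vehicle mice 1 and 4 (195). With the liver marker score as a covariate it was 0 (354). Over all genes and both directions, the number with an unadjusted p under 0.05 was 842. It ran from 436 without vehicle mouse 4 to 1980 with array weights. It was 498 higher and 344 lower in the reported fit, and 603 higher and 268 lower after a further quantile normalization, under which both Ddit4 (-1.07) and Tat (-1.18) were again lower. The median difference of the targets ran from -0.42 to -0.11 without any 1 mouse. Ddit4, Tat, Sgk1, Errfi1, Tsc22d3 and Klf9 had a lower mean under all 20 alternatives. Without any 1 mouse, Zbtb16 ranged from -0.55 to 0.033 and Hif3a from -0.38 to 0.054. Signs turned for Hif3a without prednisolone mouse 2 (0.054), for Zbtb16 without vehicle mouse 2 (0.033) or 4 (0.028), for Dusp1 without vehicle mice 1 and 4 (-0.0083), and for Fkbp5 with the liver marker score as a covariate (0.25); the cause was not tested. Mice of the same number did not deviate together (r of -0.192, -0.578, 0.130 and -0.276 over all tested genes). With the replicate number as a block 3 targets had an unadjusted p under 0.05, Ddit4, Tat and Sgk1, with 0 past the adjusted threshold (lowest adjusted p 0.937), and 504 genes had an unadjusted p under 0.05.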
